A study of Mus musculus with 14 samples.

Results

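The 8 genes described here encode parts of the clotting and plasminogen systems: F7 and F10 (clotting factors VII and X), F3 (tissue factor), F13a1 (the A subunit of factor XIII), Plau (urokinase), Plaur (the urokinase receptor), Thbd (thrombomodulin) and Procr (the endothelial protein C receptor). They were listed by symbol and matched to 8 of the 33939 genes of the expression table. The list was chosen from levels seen in these same 14 libraries, so the members' own values and the counts of members called are a description and support nothing further, and no p-value is printed for a member.

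Clotting outside a vessel starts when tissue factor on a cell surface binds factor VIIa, and the pair activates factor X, which in turn turns prothrombin into thrombin. Factor XIII then cross-links the fibrin that thrombin makes. Thrombomodulin binds thrombin and, together with the protein C receptor, lets it activate protein C, which slows clotting. Urokinase, held at the cell surface by its receptor, turns plasminogen into plasmin, the protease that dissolves fibrin. After brain injury, blood proteins including fibrinogen enter the tissue, and microglia and macrophages there meet fibrin. Tissue macrophages are known to make several of these proteins themselves, among them tissue factor, factor XIII-A and the urokinase receptor.

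Bulk RNA-seq was made from CD11b+ cells, which are mostly microglia and other myeloid cells, 3 days after traumatic brain injury (TBI) by controlled cortical impact. Ctrl mice were Cx3cr1-CreER+/- and cKO mice were Cx3cr1-CreER+/-;Nhe1flox/flox; mice of both genotypes were C57BL/6, 8 to 12 weeks old, and received tamoxifen, so the Ctrl group also carried the Cre allele. Cells came from the contralateral (CL) and the injured ipsilateral (IL) hemisphere, with 4 libraries of each hemisphere for Ctrl and 3 of each for cKO, from 8 mice, 6 of which gave both hemispheres. The CL tissue belonged to injured mice and is not uninjured brain. Cre under the Cx3cr1 promoter also acts in Cx3cr1-expressing cells other than microglia, and the sort with CD11b beads does not separate microglia from blood-derived myeloid cells.

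The libraries held 12.2 to 41.6 M reads, as read from the most frequent nonzero value of each library, taken as a single read. All 10 microglia markers were present in every group, and their summed level was lower in IL (22873 to 27781 CPM, reads scaled to the same total in every library) than in CL libraries (39967 to 48130 CPM). A lower level in bulk RNA can come from fewer cells of a type or from less RNA per cell, and these cannot be told apart. The summed 9 neutrophil markers ran from 553 to 7823 CPM in Ctrl CL, highest in mouse 3541, and from 165 to 1017 CPM in Ctrl IL. In cKO they ran from 587 to 1652 CPM in CL and from 236 to 372 CPM in IL, without overlap. The 6 fibroblast markers summed to 116 CPM in the CL and 82.3 CPM in the IL library of cKO mouse 3592, against 5.70 to 27.5 CPM in the other 12 libraries. The 8 monocyte markers summed to 95.8 to 728 CPM in CL and 147 to 358 CPM in IL, but within Ctrl the list was divided: Ccr2 went from a mean of 35.4 to 73.8 CPM, Ms4a4c from 6.53 to 16.9 CPM and Vcan from 1.39 to 4.15 CPM without overlap, while the means of Ly6c2 and Chil3 were lower in IL. The 6 astrocyte markers summed to 34.5 to 42.4 CPM in Ctrl CL and 50.1 to 87.5 CPM in Ctrl IL, without overlap, and to 28.1 to 61.4 CPM and 51.9 to 103 CPM in cKO. Gfap carried most of that step in Ctrl, with means of 9.42 and 33.9 CPM, while Slc1a2 went from 3.27 to 2.22 CPM and Aqp4 from 2.30 to 2.63 CPM. The part of any of these in the values below was not tested.

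F7 and F10 are neighbours. In GRCm38, F7 lies at chr8:13026034-13035809 and F10 at chr8:13037308-13056676, both on the plus strand, with 1498 bases between the end of F7 and the start of F10. F3 lies at chr3:121723537-121735048 (plus strand), F13a1 at chr13:36867178-37050244 (minus), Plau at chr14:20836660-20843385 (plus) and Plaur at chr7:24462484-24475968 (plus). Thbd, a gene of a single exon, lies at chr2:148404466-148408188 (minus) and Procr at chr2:155751117-155755471 (plus). Exons of F13a1 share 74 bases with the antisense gene Gm30489, and whether the counting used strand is not given in the sources used here. The 250 bases before the RefSeq start (GRCm38.p6) are printed for the neighbouring pair, for Plaur, the most abundant member per length of exon, and for F3, the trigger of the pathway, 5′ to 3′ on the gene's strand, here plus for all 4. Capitals mark every match, on either strand, to 6 motifs: AP-1 (TGANTCA), C/EBP (TTGCNNAA), the PU.1 core (GAGGAA), NF-kB (GGGNNTTCC), the GC box (GGGCGG) and the hypoxia core (ACGTG).
F7, chr8:13025784-13026033: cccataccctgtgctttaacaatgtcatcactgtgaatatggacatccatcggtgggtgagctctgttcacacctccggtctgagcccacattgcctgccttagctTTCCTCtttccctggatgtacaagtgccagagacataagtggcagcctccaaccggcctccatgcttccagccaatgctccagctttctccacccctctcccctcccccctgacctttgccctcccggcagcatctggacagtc
F10, chr8:13037058-13037307: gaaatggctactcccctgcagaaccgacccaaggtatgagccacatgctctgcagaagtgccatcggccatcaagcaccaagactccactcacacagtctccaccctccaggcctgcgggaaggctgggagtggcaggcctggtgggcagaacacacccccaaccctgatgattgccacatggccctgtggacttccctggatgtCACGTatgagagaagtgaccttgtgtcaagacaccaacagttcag
Plaur, chr7:24462233-24462482: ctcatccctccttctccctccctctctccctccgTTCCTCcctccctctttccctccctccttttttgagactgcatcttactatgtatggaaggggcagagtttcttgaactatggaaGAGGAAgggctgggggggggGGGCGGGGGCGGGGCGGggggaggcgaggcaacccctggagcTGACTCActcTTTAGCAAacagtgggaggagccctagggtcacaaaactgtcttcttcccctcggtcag
F3, chr3:121723287-121723536: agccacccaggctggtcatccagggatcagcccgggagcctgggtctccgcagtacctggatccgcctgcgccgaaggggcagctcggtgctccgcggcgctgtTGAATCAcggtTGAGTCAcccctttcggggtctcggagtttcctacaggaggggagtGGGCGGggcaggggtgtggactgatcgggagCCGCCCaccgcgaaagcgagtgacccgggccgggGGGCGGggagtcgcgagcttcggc
The F7 window held 1 match, to the PU.1 core, and the F10 window 1, to the hypoxia core, so the neighbours shared no match. AP-1 was matched 2 times in the F3 window and 1 time in that of Plaur, and a match also lay in the window of Procr. Of all 32851 RefSeq windows of the same 250 bases, 6.75% held an AP-1 match, 9.56% a C/EBP match, 23.3% a PU.1 core, 4.98% an NF-kB match, 32.7% a GC box and 16.6% a hypoxia core. Of the 3 GC boxes in the Plaur window, the last 2 share a base, and no NF-kB match lay in the 4 windows. A match of letters is a description and not a binding site.

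To see where these transcripts were high within the injured brain, IL was set against CL libraries within each genotype, using limma on log2(CPM + 1) with a gene called at an adjusted p of at most 0.05 and a fold change of at least 1.2. In Ctrl mice 3 of the 8 members were called, all higher in IL: F7, F10 and Procr. Over all genes tested, 3.6% were called higher in IL (6.56% in either direction). With the mouse as a block, Thbd was called as well, which gives 4 of 8 beside 9.8% of all genes called higher and 20.5% in either direction. The members' median difference was 0.92 on the log2 scale, beside -0.04 for all genes. In cKO mice 4 of 8 were called higher in IL, F7, F10, Plaur and Procr, where 12.8% of all genes were called higher and 22.4% in either direction. With the mouse as a random effect F13a1 joined them, giving 5 of 8 beside 15.9% called higher and 28.2% in either direction. The members' median difference in cKO was 1.02, beside 0.02 for all genes. No member was called lower in IL in either genotype.

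**Figure D1:**
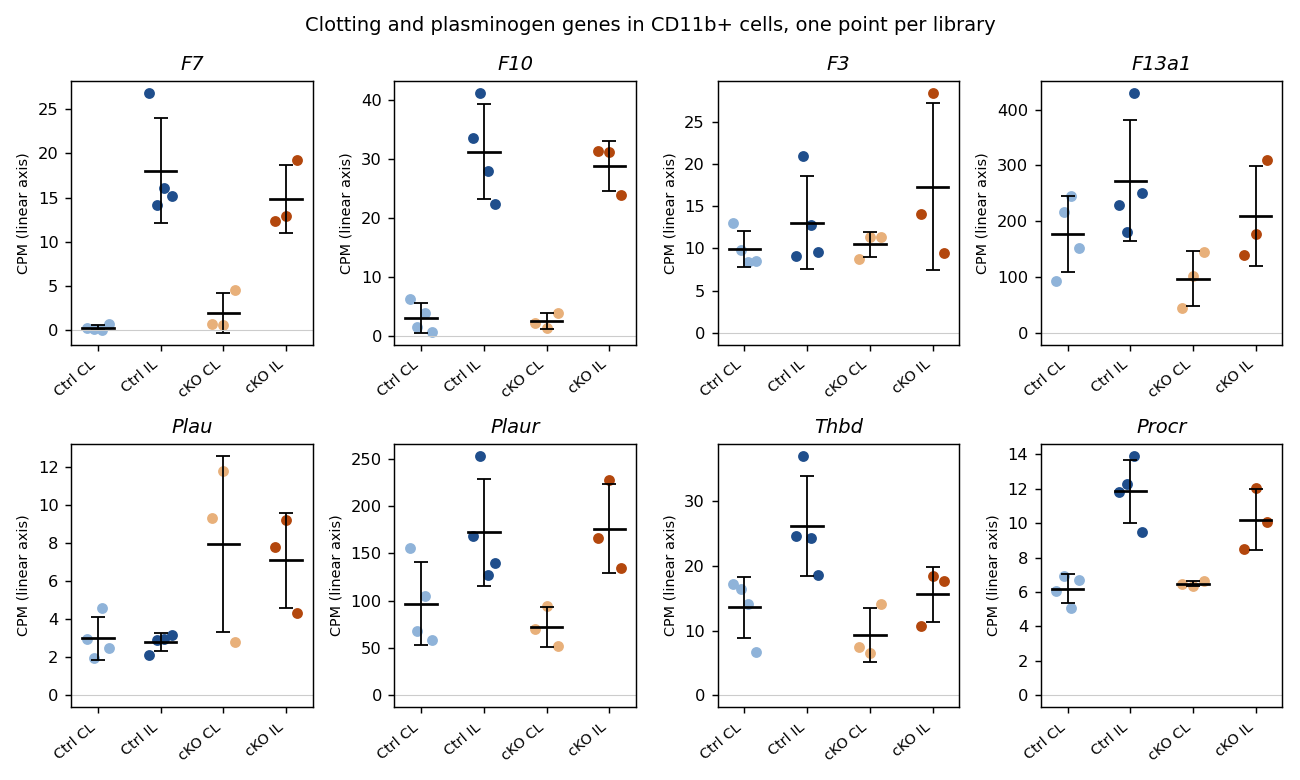
CPM of each member (vertical axis, linear) in the 4 groups, 1 point per library, with the group mean (long bar) and SD (error bar). For F7, F10 and Procr all IL points lie above all CL points of both genotypes, while the Plau points of IL and CL overlap in both genotypes.

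F7, the protease that tissue factor binds, had the largest hemisphere difference of the 8 members in Ctrl. In Ctrl CL it was at 0.216, 0.201, 0.0706 and 0.747 CPM in mice 3541, 3545, 3546 and 3551, and the IL libraries of the same mice held 26.8, 14.1, 16.0 and 15.2 CPM. In cKO it was at 0.692, 0.655 and 4.53 CPM in CL (mice 788, 791 and 3592) and at 12.3, 12.9 and 19.3 CPM in IL (mice 784, 791 and 3592). The groups were far apart in both genotypes, and the CL library of mouse 3592 was the only CL library above 0.747 CPM. The lowest CL value, of Ctrl mouse 3546, rests on 2 reads. On the log2(CPM + 1) scale the difference was 3.89 (SE 0.28) in Ctrl, where F7 ranked 13 from the top among 16376 genes, and 2.71 (SE 0.43) in cKO, where it ranked 29 among 16758. These differences depend on the added constant, since CL levels are so low: with 0.1 in place of 1 they were 5.74 and 3.46.

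F10, the substrate of the tissue factor and factor VIIa pair, rose beside it. Ctrl CL libraries held 6.13, 1.45, 3.85 and 0.560 CPM and Ctrl IL libraries 33.5, 41.2, 28.0 and 22.3 CPM, in the mouse order given for F7. In cKO the values were 2.21, 1.24 and 3.91 CPM in CL and 31.3, 31.2 and 23.9 CPM in IL. The lowest IL value, 22.3 CPM, was above the highest CL value, 6.13 CPM, so the groups were wide apart. The log2 difference was 3.26 (SE 0.47) in Ctrl and 3.24 (SE 0.29) in cKO, ranks 22 and 7 from the top. F7 and F10 were called with any library left out in turn, in 8 of 8 fits of Ctrl and 6 of 6 of cKO. Over the 14 libraries, F7 and F10 had a Pearson correlation of 0.91, a description that the split by hemisphere shapes.

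Of the other 5 genes within 100000 bases, which were chosen after values were seen, 4 are protein-coding, and the pseudogene Gm17022 had means of 0.133 CPM in Ctrl CL and 0.303 CPM in Ctrl IL. Mcf2l, before F7, had means of 1.80 ± 0.40 (SD, n = 4) CPM in Ctrl CL and 2.13 ± 0.90 (SD, n = 4) in Ctrl IL. Proz, the gene of protein Z just after F10, stood at 0.557 ± 0.089 and 0.527 ± 0.367 CPM in the same groups. Pcid2 was at 32.2 ± 2.0 and 25.6 ± 2.9 CPM and Cul4a at 56.5 ± 7.0 and 59.5 ± 5.3 CPM. The means of Mcf2l, Proz and Cul4a differed between hemispheres by less than the SD of either group in Cul4a and Mcf2l and of the CL group in Proz, and that of Pcid2 was lower in IL. Of these 5 genes, Proz is also among the related genes tested below and was not called in either genotype, and the others are given without a test.

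**Figure D2:**
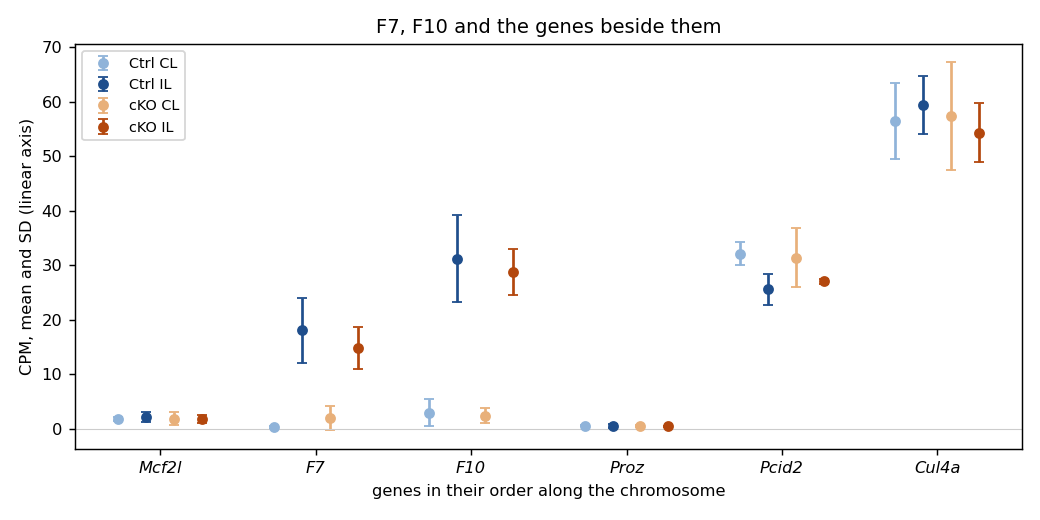
Mean CPM with SD (vertical axis, linear) of F7, F10 and 4 protein-coding genes beside them, in chromosome order on the horizontal axis, in the 4 groups. F7 and F10 rise from CL to IL in both genotypes, whereas Mcf2l, Proz and Cul4a stay close to their CL means and Pcid2 is slightly lower in IL.

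F3, the tissue factor gene, was present in every library and was not called. It was at 13.01, 9.78, 8.37 and 8.46 CPM in Ctrl CL and at 9.05, 20.9, 12.8 and 9.53 CPM in Ctrl IL. In cKO it was at 8.72, 11.35 and 11.35 CPM in CL and 14.05, 28.4 and 9.50 CPM in IL. The groups overlapped in both genotypes, and the 2 highest values were the IL libraries of mice 3545 and 791. The log2 difference was 0.38 (SE 0.31) in Ctrl and 0.63 (SE 0.36) in cKO.

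F13a1, whose product cross-links fibrin and which is abundant in macrophages and platelets, had the highest CPM of the members. Ctrl CL libraries held 92.2, 217, 244 and 152 CPM and Ctrl IL libraries 229, 181, 430 and 250 CPM. In cKO the values were 45.0, 102 and 144 CPM in CL and 140, 178 and 309 CPM in IL. The groups overlapped in both genotypes, and mouse 3545 went the other way from the rest. The log2 difference was 0.72 (SE 0.30) in Ctrl and 1.25 (SE 0.39) in cKO, the latter called only with the mouse as a random effect or without the CL library of mouse 3592. The 7 platelet markers summed to 16.9 to 28.8 CPM in CL and to 6.87 to 16.6 CPM in IL. Gp9 made up most of that sum, with means of 24.8 CPM in Ctrl CL and 6.88 CPM in Ctrl IL, whereas Ppbp went from 0.387 to 3.90 CPM. The 7 markers of border-associated macrophages summed to 421 CPM in the Ctrl IL library of mouse 3546 and to 338 CPM in the cKO IL library of mouse 3592, the 2 libraries with the highest F13a1, against 206 to 259 CPM in the other 5 IL libraries. In CL the sum was as high, 445 CPM in mouse 3546, 362 CPM in mouse 3545 and 348 CPM in mouse 3592, where F13a1 was at 244, 217 and 144 CPM. This list was divided in Ctrl, with Mrc1 and Lyve1 lower in mean in IL (148 to 83.1 and 30.3 to 13.2 CPM) and Siglec1 and Ms4a7 higher (11.6 to 28.0 and 32.3 to 82.7 CPM). The part of either list in the F13a1 level was not tested.

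Plaur, the receptor that holds urokinase at the cell surface, was at 156, 68.6, 105 and 58.6 CPM in Ctrl CL and at 169, 253, 128 and 140 CPM in Ctrl IL. In cKO it was at 70.4, 94.5 and 52.1 CPM in CL and 166, 228 and 135 CPM in IL. The cKO groups did not overlap, while in Ctrl the CL library of mouse 3541 lay among the IL values. That library also held the highest neutrophil marker sum, whose part was not tested. The log2 difference was 0.95 (SE 0.38) in Ctrl and 1.37 (SE 0.27) in cKO, and the call in cKO held in 6 of 6 fits with a library left out.

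Plau, the gene of urokinase itself, showed no step between hemispheres. It was at 2.96, 1.96, 4.59 and 2.49 CPM in Ctrl CL and 2.11, 2.93, 2.95 and 3.19 CPM in Ctrl IL, and at 9.30, 11.8 and 2.83 CPM in cKO CL and 7.78, 9.20 and 4.33 CPM in cKO IL. Hemispheres overlapped in both genotypes. The log2 difference was 0.01 (SE 0.21) in Ctrl and 0.05 (SE 0.46) in cKO. Per kilobase of exon, urokinase stood at 1.27 CPM in Ctrl CL and its receptor at 37.1 CPM.

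Thbd and Procr act in the activation of protein C, and Procr was called higher in IL in both genotypes, Thbd in neither without the mouse term. Thbd, whose product binds thrombin, was at 17.2, 16.3, 14.01 and 6.72 CPM in Ctrl CL and at 24.6, 36.9, 24.3 and 18.6 CPM in Ctrl IL, without overlap. In cKO it was at 7.44, 6.51 and 14.1 CPM in CL and 10.6, 18.5 and 17.6 CPM in IL, where the groups overlapped. Its log2 difference was 0.998 (SE 0.36) in Ctrl, called only with the mouse as a block, and 0.79 (SE 0.29) in cKO, called only without the CL library of mouse 3592.

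Procr, whose product presents protein C for activation, varied little among libraries of a group. It was at 6.08, 6.92, 5.05 and 6.72 CPM in Ctrl CL and at 11.8, 12.3, 13.9 and 9.47 CPM in Ctrl IL, and at 6.45, 6.37 and 6.62 CPM in cKO CL and 8.49, 12.0 and 10.1 CPM in cKO IL. No IL library reached down to a CL value in either genotype. The log2 difference was 0.90 (SE 0.22) in Ctrl and 0.65 (SE 0.18) in cKO. The call lay near the threshold: it held in 3 of 8 fits of Ctrl with a library left out (without the CL library of mouse 3545 or the IL library of mouse 3546 or 3551) and in 1 of 6 of cKO (without the CL library of mouse 3592). It was also lost in both genotypes without the filter on low values, and in cKO with all 14 libraries in a single fit. The 8 endothelial markers, whose cells also make Thbd and Procr, summed to 82.9 to 222 CPM in CL and to 94.1 to 163 CPM in IL, and these ranges overlapped in both genotypes. Its genes went different ways: the mean of Kdr went from 9.85 to 19.4 CPM in Ctrl and from 16.0 to 37.1 CPM in cKO, that of Cdh5 was also higher in IL in both, and that of Slco1a4 went from 31.2 to 15.0 CPM in Ctrl and from 11.3 to 6.11 CPM in cKO. The part of these cells in the Thbd and Procr levels was not tested.

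Counted by overlap alone, every IL library was above every CL library for F7, F10, Thbd and Procr in Ctrl, 4 of 8 members beside 6.26% of all genes. In cKO this held for F7, F10, Plaur and Procr, 4 of 8 beside 18.1% of all genes. Within the 6 mice that gave both hemispheres, F7, F10, Plaur, Thbd and Procr were higher in IL in 6 of 6, F13a1 in 5, F3 in 4 and Plau in 3. How many of all genes were higher in IL in 6 of 6 mice was not counted, so these numbers only describe the members. The F7 difference within a mouse ran from 1.90 in cKO mouse 3592 to 4.68 in Ctrl mouse 3541 on the log2 scale, and that of F10 from 2.36 to 4.22. The smallest within-mouse differences of Plaur were 0.19 in Ctrl mouse 3541 and 0.30 in Ctrl mouse 3546, and that of Thbd was 0.33 in cKO mouse 3592.

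**Figure D3:**
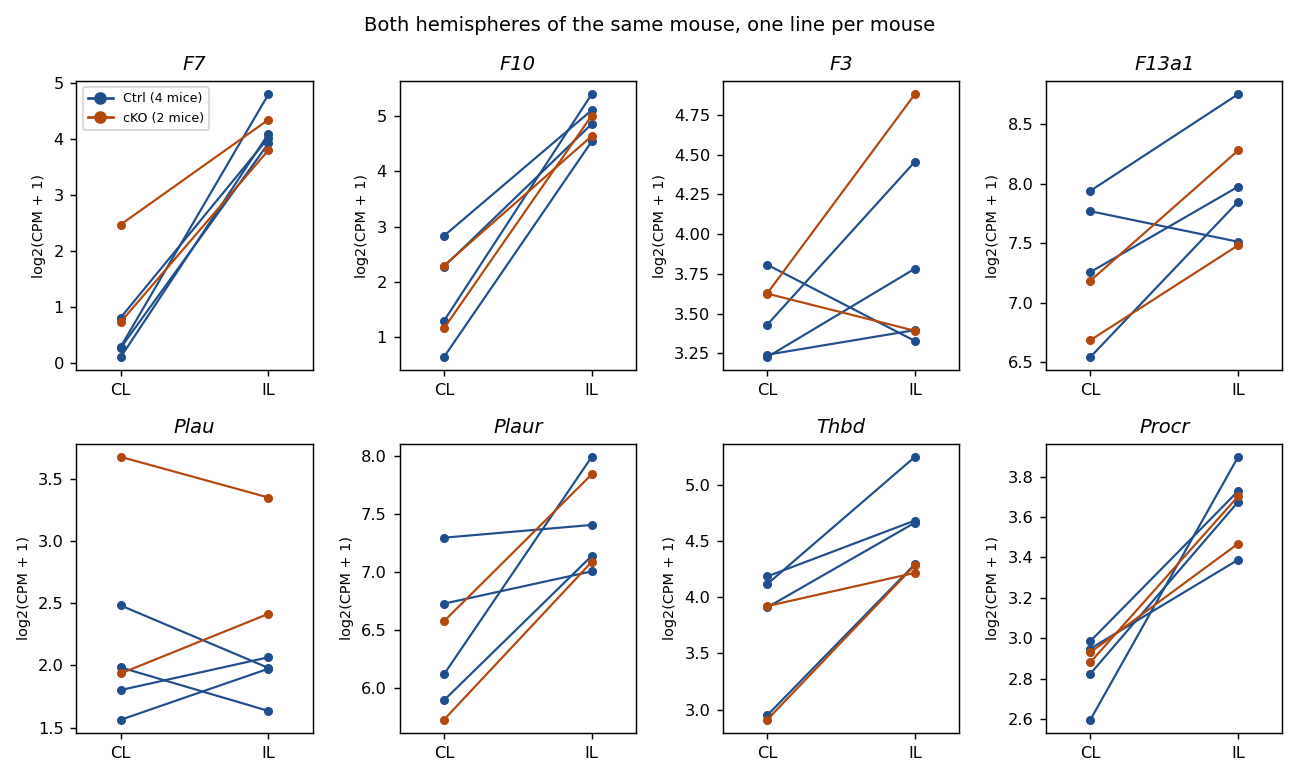
Level of each member on the log2(CPM + 1) scale (vertical axis; each panel has its own range, not starting at 0) in the CL and IL library of the same mouse, 1 line per mouse, 4 Ctrl and 2 cKO mice. Lines for F7, F10, Plaur, Thbd and Procr rise in 6 of 6 mice, and those of Plau cross. The share of all genes with such lines was not counted.

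Per kilobase of exon, which allows levels of different genes to be set side by side, Plaur came first and F13a1 second in all 4 groups, at 37.1 and 26.2 CPM per kb in Ctrl CL and 65.9 and 40.5 CPM per kb in Ctrl IL. F10 and F7 moved from the last 2 places in CL, at 1.10 and 0.166 CPM per kb in Ctrl, to the third and the fourth in IL, at 11.4 and 9.71 CPM per kb. The other 4 members lay between 1.18 and 7.02 CPM per kb in the Ctrl groups. F3 and Thbd, next to each other in Ctrl CL at 3.92 and 3.64 CPM per kb, differed by less than the spread of either.

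The next comparison, cKO against Ctrl, asks whether loss of Nhe1 went with different levels in the same hemisphere. In IL 0 of 8 members were called by limma, beside 0.662% of all genes, while 1508 of 16919 genes had an unadjusted p under 0.05. The members' median difference was -0.13, beside 0.01 for all genes. The groups did not overlap for 2 of 8 members, Plau and Thbd, where 10.3% of all genes had no overlap. Plau was at 4.33 to 9.20 CPM in cKO IL and at 2.11 to 3.19 CPM in Ctrl IL, a log2 difference of 1.07 (SE 0.27). Thbd was at 10.6 to 18.5 CPM in cKO IL, below the Ctrl IL range of 18.6 to 36.9 CPM, a log2 difference of -0.70 (SE 0.30). F7 and F10, the members with the steepest step between hemispheres, differed between genotypes in IL by -0.24 (SE 0.28) and -0.08 (SE 0.27) on the log2 scale. Differences of F3 (0.33), F13a1 (-0.38), Plaur (0.06) and Procr (-0.19) were within their SE or not far past it.

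In CL 0 of 8 members were called by limma, beside 0.873% of all genes, while 1628 of 16603 genes had an unadjusted p under 0.05. The median difference was -0.01, beside -0.05 for all genes. No member was without overlap in CL, where 9.99% of all genes were. F7 was 0.95 (SE 0.37) higher in cKO on the log2 scale, and without the library of mouse 3592 the difference was 0.39. Plau was 1.03 (SE 0.39) higher and F13a1 differed by -0.92 (SE 0.37). Thbd (-0.50), Plaur (-0.36), F10 (-0.07), F3 (0.07) and Procr (0.06) also overlapped between genotypes. Plau would have been called without the cKO library of mouse 3592, in IL with a difference of 1.38 and in CL with 1.58.

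**Figure D4:**
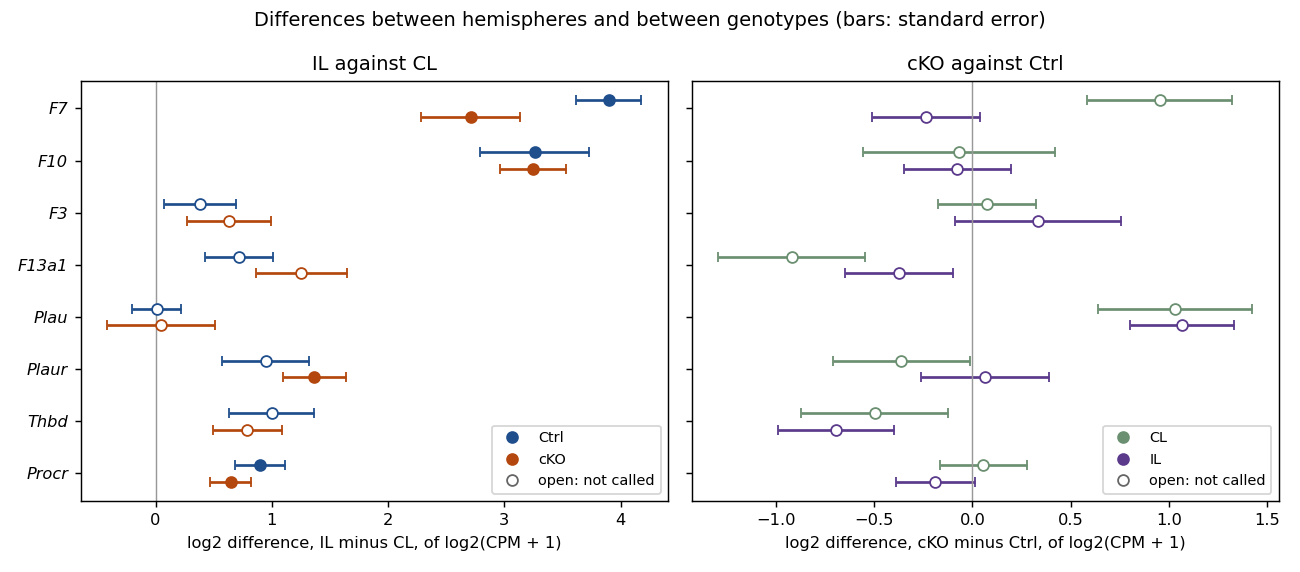
Log2 difference of log2(CPM + 1) (horizontal axis) for each member between hemispheres (left, Ctrl and cKO) and between genotypes (right, CL and IL), with its standard error; filled points were called. F7 and F10 stand furthest to the right between hemispheres, and no point is filled between genotypes.

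Whether the hemisphere difference itself differed between genotypes was fitted over all 14 libraries. None of the 8 members and 0 of 18476 genes (0%) were called, while 481 genes had an unadjusted p under 0.05. The F7 difference was smaller in cKO by a log2 value of -1.18 (SE 0.53), and -0.61 without the CL library of mouse 3592. The other 7 members had interaction values from -0.25 (SE 0.28) for Procr to 0.54 (SE 0.53) for F13a1.

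Other genes of the same systems were taken from lists of 42, of which 38 were in the table. F11, F12, Fgg and Cpb2 were not analysed here. In Ctrl 25 of the 38 passed the filter on low values; in limma's test across all genes 1 was called higher and 1 lower in IL, beside 3.6% of all genes called higher and 6.56% in either direction. Their median difference was -0.08 on the log2 scale, beside -0.04 for all genes. Anxa2, a plasminogen and tPA receptor subunit, rose from 48.3 to 133 CPM in Ctrl CL to 176 to 297 CPM in Ctrl IL, a log2 difference of 1.82 (SE 0.38, adjusted p = 0.0201, limma). F9, the gene of clotting factor IX, fell from 10.6 to 15.8 CPM to 5.12 to 6.74 CPM, a log2 difference of -0.85 (SE 0.22, adjusted p = 0.046, limma). The call of Anxa2 held in 4 of 8 fits with a library left out and was lost without the CL or the IL library of mouse 3545, the CL library of mouse 3546 or the IL library of mouse 3541. That of F9 held in 1 of 8, the fit without the CL library of mouse 3551. Without the filter on low values neither was called (adjusted p = 0.0675 for Anxa2 and 0.0906 for F9, limma). With the mouse as a block, Lrp1 (0.68), a receptor that clears protease and inhibitor complexes, was also called higher. Pros1 (-0.31), Tfpi (-0.60) and Serpine2 (-0.46) were called lower in that fit. Together with Anxa2 and F9 this gave 2 higher and 4 lower, beside 9.8% of all genes called higher and 20.5% in either direction.

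In cKO 25 genes were tested, 3 were called higher and 1 lower, with or without the mouse as a random effect, beside 12.8% of all genes called higher and 22.4% in either direction, and the median difference was 0.01 beside 0.02 for all genes. Anxa2 rose by 2.41 (SE 0.39, adjusted p = 0.0057, limma) and S100a10, its partner in the receptor, by 1.57 (SE 0.36, adjusted p = 0.0185, limma). Vwf, the gene of von Willebrand factor, made by endothelium and platelets, rose by 1.36 (SE 0.25, adjusted p = 0.00841, limma). F9 differed by -0.91 (SE 0.17, adjusted p = 0.00815, limma). The calls of Anxa2, Vwf and F9 held in 6 of 6 fits with a library left out and that of S100a10 in 2 of 6, without the CL library of mouse 3592 or the IL library of mouse 784, and S100a10 was not called with all 14 libraries in a single fit (adjusted p = 0.123, limma). F9 fell in both genotypes, the opposite direction from F7 and F10, which act beside it in the cascade.

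By list, the other clotting factors counted 0 higher and 1 lower of 6 tested in Ctrl, and 1 higher and 1 lower of 5 in cKO. The other inhibitors counted 0 of 4 in both genotypes, the other plasminogen system genes 1 higher of 13 in Ctrl and 2 higher of 13 in cKO, and the thrombin and protease-activated receptors 0 of 2 and 0 of 3. The most abundant gene of each list was not called in the tests without the mouse: Vkorc1, which recycles vitamin K for the clotting factors, had means of 52.7 and 36.9 CPM in Ctrl CL and IL. Pros1, the protein S gene, was at 619 and 476 CPM, Serpine2, an inhibitor of thrombin and urokinase, at 965 and 664 CPM, and F2r, the thrombin receptor, at 5.19 and 4.87 CPM. Transcripts of several liver products were near 0: F2 (prothrombin) averaged 0.128 CPM over the 14 libraries, Plg (plasminogen) 0.0136 CPM, and Fga and Fgb, the fibrinogen genes in the table, 0.0123 and 0.051 CPM.

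Between genotypes 0 of 27 related genes were called in IL, with 4 at an unadjusted p under 0.05, and 1 of 26 in CL (limma), beside 0.662% and 0.873% of all genes. Mrc2, a receptor that takes up collagen and binds the urokinase receptor complex, was at 3.15 to 13.1 CPM in cKO CL and 24.5 to 55.8 CPM in Ctrl CL, a log2 difference of -2.002 (SE 0.39, adjusted p = 0.0446, limma). This call held in 1 of 7 fits with a library left out, that without the cKO library of mouse 791, and was lost on the deposited CPM without a scaling factor (adjusted p = 0.0849, limma) and without the filter (adjusted p = 0.145, limma).

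**Figure D5:**
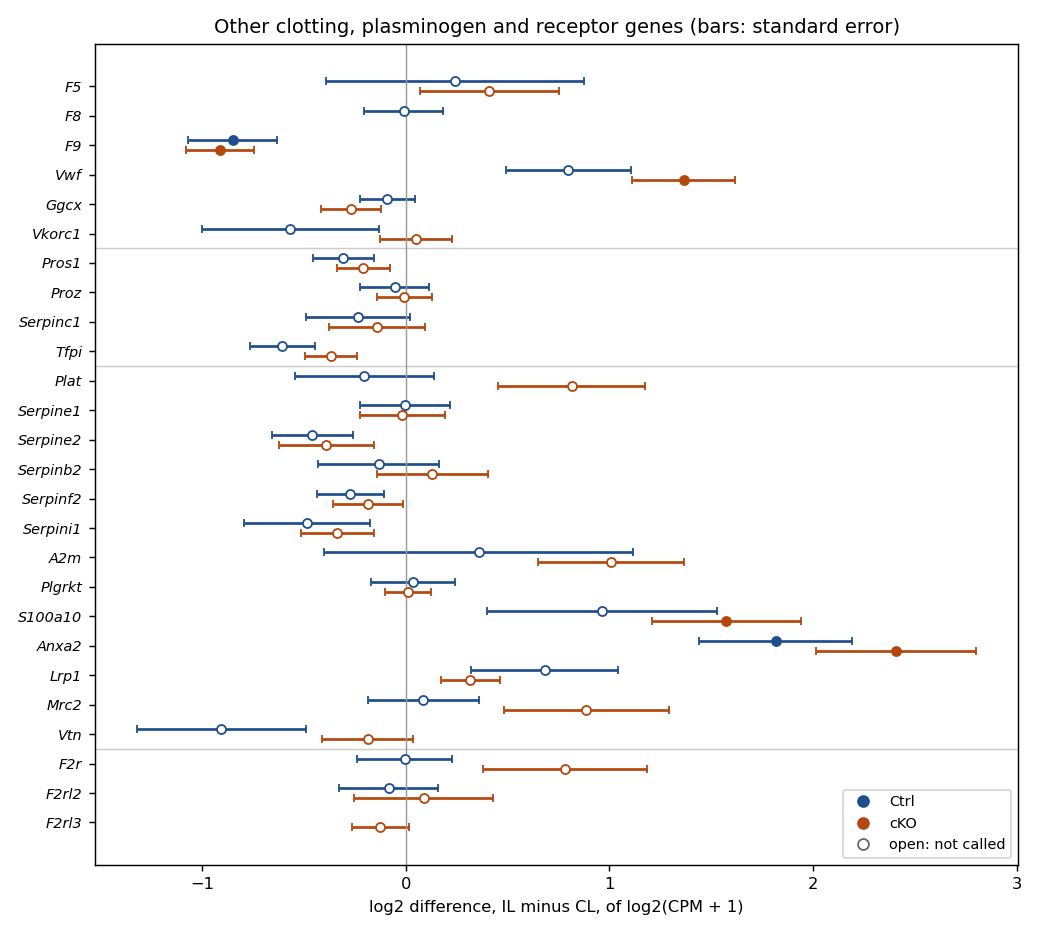
Log2 difference of log2(CPM + 1) between IL and CL (horizontal axis) with its standard error for the related genes that passed the filter, in Ctrl and cKO; lines divide clotting factors, inhibitors, plasminogen system genes and receptors, and filled points were called. Anxa2 lies furthest right and F9 is filled on the left in both genotypes.

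The genes whose levels followed each member most closely over the 14 libraries were taken among 9643 genes by Pearson's r of log2(CPM + 1), as a description in which the hemispheres set much of the order. F7 was followed by Slc6a8 (r = 0.99), the creatine transporter, and Htr2b (r = 0.99), a serotonin receptor. F10 was followed by Adam8 (r = 0.98), a membrane metalloprotease, and Cd44 (r = 0.97), a hyaluronan receptor. For Plaur the genes were Gpi1 (r = 0.98), an enzyme of glycolysis, and Gm1840 (r = 0.96), and for Procr Txnrd1 (r = 0.98), a thioredoxin reductase, and Sdcbp (r = 0.96), the gene of syntenin. Gstm1 (r = 0.94), a glutathione transferase, was among the genes that followed Thbd, and F13a1 was followed by Tlr8 (r = 0.94) and Sdha (r = 0.94). F3 had the loosest fit of the 8, with AC160336.1 (r = 0.88) and Egln1 (r = 0.86), an oxygen-sensing prolyl hydroxylase. Plau was followed by Apbb2 (r = 0.96) and Gm13394 (r = 0.93), and its own r with the other members ran from -0.51 with F13a1 to 0.33 with F3. Reads of Gpi1 and Gm1840, or of other predicted genes named here, may be shared with near-identical copies, which the table does not settle.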

How the data were processed

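CD11b+ cells of 14 hemispheres were measured by bulk RNA-seq (Smart Seq v4 libraries, paired-end). The submitters' processing notes name STAR, Partek 8.0 and the mm10 build. The authors deposited 1 table of all libraries whose values sum to the same total in each and are not whole, so they are CPM and no count test was used. Depth was read from the most frequent nonzero value of each library, taken as a single read. Of values under 100 reads, 79.0 to 83.5% were whole multiples of that value (tolerance 0.03). The authors' tables of their own comparisons (p-values, fold changes, group means) were not used. Symbols came from an annotation of the same build, which matched 33802 of 33939 gene identifiers.

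CPM were scaled by trimmed means (30% of log ratios and 5% of sums trimmed), and log2(CPM + 1) was fitted with limma 3.58.1 (trend) in R 4.3.3, with Benjamini-Hochberg adjustment over all genes tested. Fold changes are on the log2(CPM + 1) scale, which understates changes of low genes. Genes needed the CPM of 10 reads at the median depth in as many libraries as the smaller group held. The comparisons between hemispheres and between genotypes were checked on simulated data. The fits with a mouse term and the genotype by hemisphere fit were not. The members and all gene lists were chosen with earlier results of these data known. Genes named are all members, every related gene called without the mouse term or with it, the most abundant gene of each list, and the 2 closest genes by pattern; the check of the targeted gene and 1 gene close to Thbd in pattern are not reported here.

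Mouse numbers stand in the labels, and libraries with the same number were taken as 1 animal. Deviations from group means correlated at 0.182 to 0.608 within the 6 mice, and at -0.536 to 0.503 for 19 other pairs of the same genotype. The mouse was therefore also fitted as a block (Ctrl) or, since cKO mice 784 and 788 gave 1 hemisphere each, as a random effect. The labels do not say whether mice shared litters or dates.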

Additional observations from a re-analysis of the deposited data

Results flagged for a closer look

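One member stood apart within a group. In the IL hemisphere of Ctrl mouse 3541, F7 was at 26.8 CPM, while the other 3 Ctrl IL libraries held 14.1 to 16.0 CPM, and the gap to the nearest was 0.85 of the whole range of the group. Groups of 4 libraries only were examined in this way, which gave 16 groups over the 8 members, and chance marks about 1 in 20 such groups. Without that library the F7 difference between IL and CL in Ctrl was 3.65 on the log2 scale.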

How the results depend on the processing

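The number of members called stayed within 1.5 times in the 27 alternatives that kept all libraries, and no called member or related gene changed direction. Without a filter on low values Procr was not called in either genotype, nor in cKO with all 14 libraries in a single fit. With libraries left out in turn, 2 to 3 members were called in Ctrl, 3 to 6 in cKO (6 without the CL library of mouse 3592), and 0 to 1 between genotypes in IL and in CL (1 without mouse 3592). For all genes and in the same order, leaving out a library gave 487 to 1413, 1882 to 3538, 46 to 284 and 70 to 165 calls, and 0 to 1 for the genotype by hemisphere difference, and for related genes 0 to 2, 3 to 8, 0 to 1 and 0 to 1.

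The counts over all genes were 1074 in Ctrl, 3746 in cKO, 112 between genotypes in IL and 145 in CL. Without the filter they were 535, 2436, 67 and 77. With all 14 libraries in a single fit they were 2091 in Ctrl, 1488 in cKO and 262 between genotypes in CL. With the replicate block (mouse) 3357 genes were called in Ctrl and 3 for the genotype by hemisphere difference, and it changed no call of a member or related gene beyond those given in the report. Related genes called, 2 in Ctrl and 1 between genotypes in CL, became 4 and 0 on the deposited CPM without a scaling factor, 0 and 0 without the filter, and 6 in Ctrl with the replicate block. The cause of these changes was not tested. Comparisons of genotypes could not be blocked, since no mouse gave more than 1 library to either. CL values of F7 rest on few reads, which limits its fold changes.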

Other observations

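Plau, the urokinase gene, split the libraries by mouse number more cleanly than by genotype, a split noticed after its values were seen and not tested. The 4 libraries of cKO mice 784, 788 and 791 held 7.78 to 11.8 CPM, and the 10 libraries of mice numbered 3541 to 3592, which include both hemispheres of cKO mouse 3592, held 1.96 to 4.59 CPM. What the number series marks is not given in the labels, and with Ctrl mice in 1 series only, the series and the genotype cannot be told apart for the other 3 cKO mice.

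Among the members, Procr had a correlation over the 14 libraries of 0.88 with F7, 0.87 with F10, 0.76 with Thbd and 0.75 with Plaur. F13a1 and F3 had 0.10. These values describe 14 libraries that share hemispheres and mice.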
